A study of Homo sapiens with 12 samples.

Results

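The genes described here are 9 genes of the tight junction, the claudin genes CLDN1, CLDN2, CLDN3, CLDN4, CLDN7 and CLDN12 with OCLN, TJP1 and F11R, in HT29 cells, a line from a human colorectal adenocarcinoma. They are listed by name, and the rule uses no measured value, although the list was drawn up with earlier results of these data known. All 9 were found by symbol among the 60675 gene IDs of the count table and all 9 were among the 15374 genes tested. RNA was sequenced from 12 libraries in 4 groups of 3. In all groups a small volume of PBS containing 2% DMSO was added to the growth medium for 24 h. It was given alone in the vehicle group and carried the water extract of Aconitum carmichaeli Debeaux (ACD) in the other groups. The 2% is the share of DMSO in the added solution, and the share in the medium was lower. The low dose was 20 µg/mL, the medium dose was 100 µg/mL and the high dose was 500 µg/mL. No genetic change was made to the cells in any group. The titles and the treatment field name ACD, whereas a longer note kept with the libraries describes an extract of Poria cocos. Groups were therefore taken from the titles. The labels do not say whether the 3 libraries of a group came from separate cultures, so p-values measure the spread between these libraries, which may be technical.

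Tight junctions seal the space between neighbouring epithelial cells near their apical surface. Claudins are membrane proteins whose strands set which ions and water pass between cells: CLDN1, CLDN3 and CLDN4 are known mainly as sealing claudins, whereas CLDN2 forms a channel for small cations and water and is known in the colon from crypts and inflamed mucosa. Occludin (OCLN) and junctional adhesion molecule A (F11R) are further membrane proteins of the junction, and ZO-1 (TJP1) is the scaffold that ties them to actin.

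CLDN2 was the only one of the 9 genes that changed at the high dose, where it was downregulated, and no other of them passed the test at any dose. CLDN1 and CLDN2 both had a decreasing dose trend. The other 7 genes passed neither the test of a dose nor that of the trend. A gene is called changed here when the quasi-likelihood test of edgeR gave a Benjamini-Hochberg adjusted p under 0.05 over all genes tested, and a DEG when the fold change was also over 1.5. None of the 9 genes was a DEG.

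The sequences upstream of CLDN2 and CLDN1 are shown because these are the genes with a change or a trend. RefSeq promoter entries (GRCh38.p14) matched 8 of the 9 genes, all but F11R, and the 250 bases before the start site are given 5′ to 3′ on the strand of the gene. Capitals mark matches, on either strand, to 1 of 6 short motifs: the AP-1 site TGANTCA, the CDX type TTTAT, the GATA type TGATAA, the core of the xenobiotic response element GCGTG, the GC box GGGCGG and the E-box CAGGTG. CLDN2 has 2 entries, on chromosome X, and that of CLDN1 is on the minus strand of chromosome 3.
CLDN2 start 1, chrX:106899914-106900163, plus strand: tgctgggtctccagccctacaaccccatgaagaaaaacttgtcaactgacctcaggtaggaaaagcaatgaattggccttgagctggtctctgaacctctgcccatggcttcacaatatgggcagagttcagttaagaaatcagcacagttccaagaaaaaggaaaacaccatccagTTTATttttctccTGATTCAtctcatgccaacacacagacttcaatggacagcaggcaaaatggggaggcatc
CLDN2 start 2, chrX:106918110-106918359, plus strand: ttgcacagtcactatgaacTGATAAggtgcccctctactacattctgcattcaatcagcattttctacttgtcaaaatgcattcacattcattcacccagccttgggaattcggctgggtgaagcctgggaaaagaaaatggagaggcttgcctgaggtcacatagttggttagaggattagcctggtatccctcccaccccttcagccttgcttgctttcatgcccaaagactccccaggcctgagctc
CLDN1, chr3:190322447-190322696, minus strand: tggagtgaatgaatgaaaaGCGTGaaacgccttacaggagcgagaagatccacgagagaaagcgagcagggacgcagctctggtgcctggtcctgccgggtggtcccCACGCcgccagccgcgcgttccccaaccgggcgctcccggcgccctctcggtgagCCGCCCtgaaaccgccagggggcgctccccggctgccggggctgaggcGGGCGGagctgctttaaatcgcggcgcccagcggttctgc

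In CLDN2 the window of start 1 held a TTTAT match that begins 73 bases and an AP-1 match that begins 60 bases before the start. The window of start 2 held a TGATAA match that begins 231 bases before it. In CLDN1 there were GCGTG matches 231 and 143 bases and GC boxes 88 and 40 bases before the start, and the window was 68.8% G or C, against 46.0% and 48.8% in those of CLDN2. Of 35116 RefSeq promoter windows of the same length, 6.57% held TGANTCA, 32.7% TTTAT, 6.66% TGATAA, 32.2% GCGTG, 42.6% GGGCGG and 17.5% CAGGTG. A match describes only the letters in the window, and binding of a factor was not measured.

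The 12 libraries held 15941250 to 33866636 expected counts. The share of counts from the mitochondrial genome was 14.0% to 16.6% at the high dose and 7.41% to 11.1% in the other libraries. High-dose replicate 2 stood apart: the SD of its log2 CPM over genes from the mean of the other libraries of its group was 0.473, against at most 0.269 in any other library. Its median deviation from the mean of each gene was lower in transcripts over 5000 bases than in those under 1500 bases, by −0.718 on the log2 scale. The same difference was −0.368 in vehicle replicate 1 and between −0.024 and 0.186 in the other libraries. Results that rest on high-dose replicate 2 are therefore also given without it. Each of the 12 colon epithelial markers listed (EPCAM, CDH1, keratins, VIL1, CDX2 and others) was at 1 CPM or more in every group. The 8 fibroblast markers summed to 1.60 to 2.90 CPM in all libraries, with COL1A2 and PDGFRA at 0. Of these LUM was at 0.495, 0.939 and 0.922 CPM in vehicle and 1.04, 2.55 and 1.17 CPM in high-dose libraries, a log2 fold change of 0.88 (edgeR adjusted p = 0.23). These values rest on 9 to 31 counts in vehicle and 23 to 38 in high-dose libraries. COL1A1, the other of the 2 fibroblast markers tested, went the other way, with a mean of 1.07 CPM in vehicle and 0.968 CPM at the high dose.

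Before any dose is considered, the level of each gene in vehicle cells is given per transcript length, as CPM per kb of the MANE Select transcript. CLDN4 had the highest level, 240.1 ± 19.7 CPM per kb (SD, n = 3). It was followed by CLDN7 at 102.5 ± 8.96 and CLDN3 at 81.7 ± 7.85, and the libraries of these 3 genes did not overlap with each other. F11R at 47.2 ± 5.28 and CLDN2 at 43.8 ± 2.78 CPM per kb overlapped, as did TJP1 at 29.4 ± 2.89 and CLDN12 at 24.7 ± 1.24. CLDN1 at 12.6 ± 0.0591 and OCLN at 5.87 ± 0.0641 CPM per kb were the lowest of the 9. CLDN4 lay at the percentile 98.3 of the 12239 tested genes with a length and OCLN at 40.6.

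**Figure D1:**
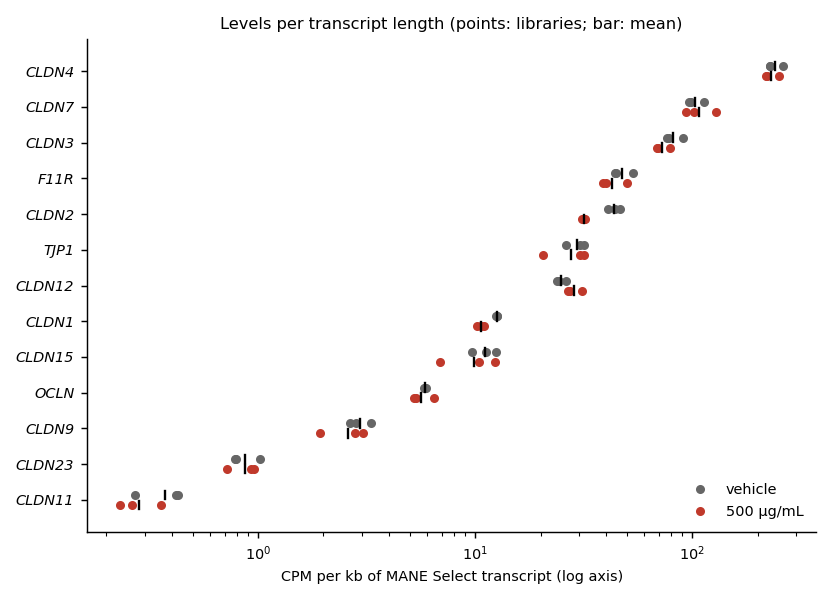
Levels per kb of MANE Select transcript (log axis) of the 9 genes and of 4 other claudins in the vehicle (grey) and high-dose (red) libraries, with a bar at the mean of 3. CLDN4 lies at about 240.1 CPM per kb in vehicle cells and OCLN at 5.87, and the points of the 2 groups do not overlap in CLDN1, CLDN2 and CLDN12.

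CLDN2 (ENSG00000165376, chrX:106900164-106930861, plus strand, GRCh38) forms the cation and water pore. Its level was 137.6, 121.2 and 130.1 CPM in the 3 vehicle libraries and 119.4, 125.2 and 121.2 CPM in low-dose libraries. At the medium dose it was 132.0, 122.2 and 130.9 CPM, and at the high dose 92.0, 94.4 and 94.8 CPM. All 3 high-dose libraries lay below each of the other 9, and the 3 lower groups overlapped with each other. The log2 fold change at the high dose was −0.47 (SE 0.07, edgeR adjusted p = 0.0012), a 1.38-fold lower level. In bulk RNA a lower level in each cell and fewer cells that express a gene cannot be told apart. At this dose 1 of the 9 genes changed, 11.1%, beside 5.77% of all genes tested, and 2.95% of all genes changed downwards.

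At the medium and low doses the log2 fold changes of CLDN2 were −0.01 (SE 0.07, edgeR adjusted p = 0.962) and −0.09 (SE 0.07, adjusted p = 0.795). None of the 9 genes changed at either dose, beside 1.01% of all genes at the medium and 0.124% at the low dose. At an unadjusted p under 0.05 there were 2 of the 9 genes at the medium dose, beside 11.7% of all genes, and 1 at the low dose, beside 7.95%, and DESeq2 also called none. The difference between doses was tested directly, a comparison added after the values were seen. CLDN2 was lower at the high than at the medium dose by a log2 difference of −0.45 (SE 0.07, edgeR adjusted p = 0.00518). It was lower at the high than at the low dose by −0.38 (SE 0.07, edgeR adjusted p = 0.00692). No other of the 9 genes differed in these comparisons, in which 0.891% and 2.98% of all genes passed.

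Without high-dose replicate 2 the log2 fold change of CLDN2 was −0.47 (edgeR adjusted p = 5.3e-05). When only the vehicle and high-dose libraries entered the fit it was −0.47 with an adjusted p of 0.0711 in edgeR, so that the call was lost. In that fit 1.21% of all genes changed. Over 20 alternative settings it lay between −0.51 and −0.42, and 19 of them kept the call.

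**Figure D2:**
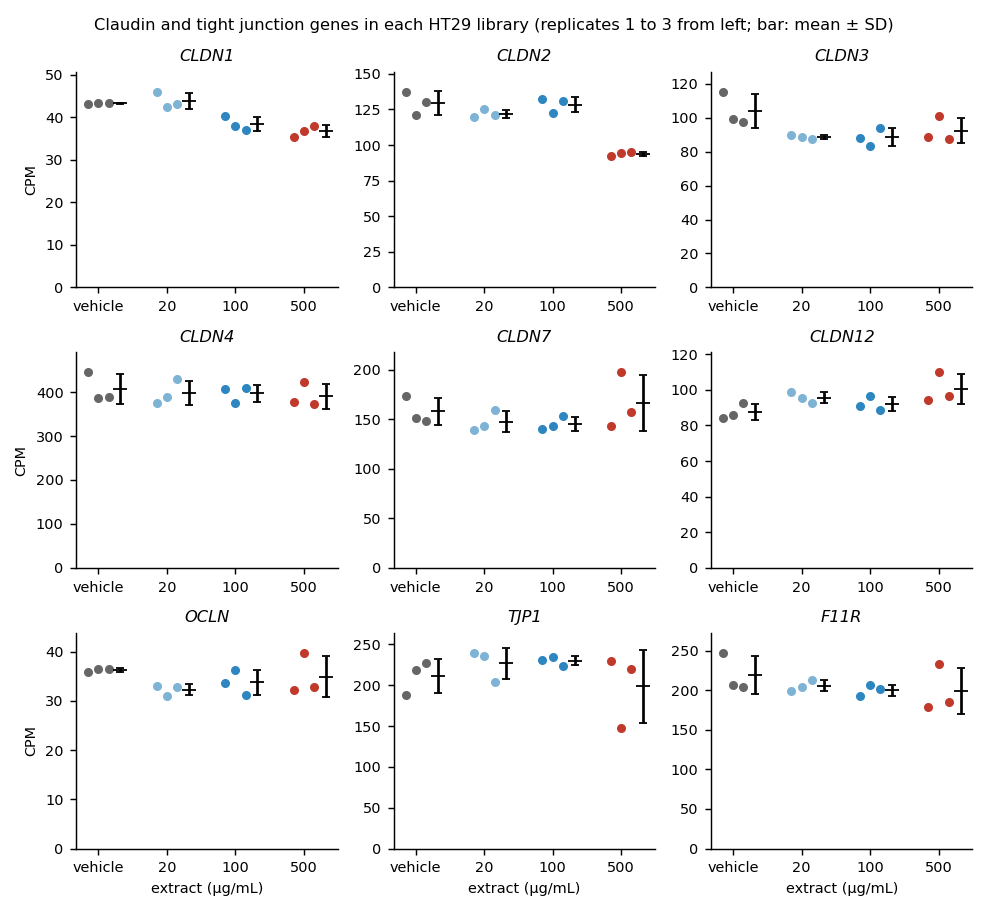
CPM of the 9 genes in each library (y axis from 0) by dose of the extract, with replicates 1 to 3 from left to right and the mean ± SD of 3 at the right of each group. CLDN2 falls to 92.0 to 94.8 CPM at 500 µg/mL, CLDN1 is lower at 100 and 500 µg/mL than in vehicle cells, and replicate 2 of the high dose is the lowest point of TJP1 and the highest of CLDN7.

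The claudin sum, over the 6 claudins described and CLDN15, CLDN9, CLDN23 and CLDN11, was 520.6 ± 39.5 CPM per kb in vehicle and 495.3 ± 39.5 in high-dose cells (SD, n = 3), and the libraries overlapped. CLDN2 made up 8.42% ± 0.35 of this sum in vehicle cells and 6.42% ± 0.453 at the high dose. The shares were 8.32% ± 0.415 at the low and 8.78% ± 0.145 at the medium dose, so that the highest high-dose library, 6.73%, lay below the lowest of the other groups, 7.86%. The ratio of CLDN2 to CLDN4, both per kb, was 0.183 ± 0.0079 in vehicle and 0.138 ± 0.00919 in high-dose libraries. CLDN4 held 46.1% ± 0.278 of the claudin sum in vehicle and 46.6% ± 0.601 in high-dose cells. These shares and ratios are descriptions of the levels already given and were not tested.

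CLDN1 (ENSG00000163347, chr3:190305707-190322446, minus strand), a sealing claudin, was at 43.0, 43.3 and 43.4 CPM in the vehicle libraries and at 46.0, 42.4 and 43.2 CPM in low-dose libraries. It was at 40.3, 37.9 and 37.1 CPM at the medium and 35.2, 36.8 and 38.0 CPM at the high dose. All high-dose libraries lay below all vehicle libraries, and the medium and high doses overlapped. Per step of dose rank its log2 level fell by 0.09 (SE 0.02, edgeR adjusted p = 0.0294). CLDN2 also had a decreasing trend, of −0.13 per step (SE 0.04, edgeR adjusted p = 0.0466), although its values dropped at the last step only. The 2 of 9 genes with a trend compare with 5.74% of all genes tested.

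At the high dose itself CLDN1 did not pass, with a log2 fold change of −0.24 (95% interval −0.38 to −0.09, edgeR adjusted p = 0.0566). It passed without high-dose replicate 2, with −0.24 (edgeR adjusted p = 0.0184), and in 5 of the 20 alternatives in all, among which the adjusted p ran from 0.0143 to 0.317. Its trend passed in 9 of 19 alternatives and that of CLDN2 in 8.

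**Figure D3:**
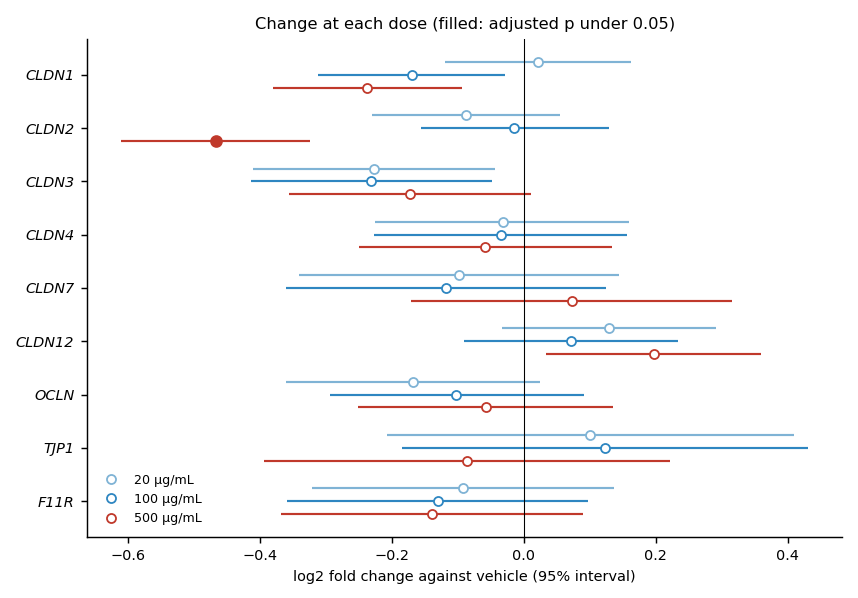
Log2 fold change of each of the 9 genes against vehicle at 20, 100 and 500 µg/mL with its 95% interval from edgeR, filled where the adjusted p was under 0.05. The filled point is CLDN2 at 500 µg/mL, at −0.47, and the intervals of CLDN4, CLDN7, OCLN, TJP1 and F11R include 0 at every dose.

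CLDN3 and CLDN4, neighbouring single-exon genes on chromosome 7, code for sealing claudins. CLDN3 (ENSG00000165215, chr7:73768997-73770270) was at 115.5, 99.3 and 97.3 CPM in vehicle libraries and 88.9, 100.8 and 87.4 CPM at the high dose, and the groups overlapped. Its log2 fold changes were −0.23 at the low, −0.23 at the medium and −0.17 at the high dose (SE 0.08 each), with edgeR adjusted p of 0.51, 0.296 and 0.284. All low-dose and all medium-dose libraries, 83.6 to 94.1 CPM, lay below the vehicle range. Without high-dose replicate 2 the medium-dose log2 fold change of CLDN3 was −0.23 with an edgeR adjusted p of 0.0378 and the high-dose value −0.24 with 0.0283. In that fit 6.87% of all genes changed at the medium and 18.7% at the high dose.

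CLDN4 (ENSG00000189143, chr7:73799542-73832690) was at 445.3, 386.6 and 388.7 CPM in vehicle and 376.2, 423.6 and 372.8 CPM in high-dose libraries. Its log2 fold change at the high dose was −0.06 (95% interval −0.25 to 0.13, edgeR adjusted p = 0.784). The sign was not stable, since without vehicle replicate 1, the highest vehicle library, the value was 0.01.

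CLDN7 (ENSG00000181885, chr17:7259903-7263983), a claudin of the lateral membrane of gut epithelium, was at 173.9, 151.8 and 148.6 CPM in vehicle libraries. At the high dose it was at 143.8, 197.8 and 157.5 CPM, and the highest of these was replicate 2. The log2 fold change was 0.07 (95% interval −0.17 to 0.32, edgeR adjusted p = 0.786) with that library and −0.07 without it. Exons of CLDN7 overlap those of ELP5 on the opposite strand. The libraries were made with a directional kit, but the strand setting of the counting is not given in the sources used here, so reads of the overlap may be assigned to either gene. The log2 fold change of ELP5 was −0.21 (edgeR adjusted p = 0.504).

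CLDN12 (ENSG00000157224, chr7:90383721-90513402), a claudin without the usual binding motif for ZO proteins, had the highest log2 fold change of the 9 genes at the high dose. It was at 84.1, 85.7 and 92.4 CPM in vehicle and 94.4, 109.9 and 96.5 CPM in high-dose libraries, which all lay above the vehicle range. The log2 fold change was 0.20 (95% interval 0.03 to 0.36, edgeR adjusted p = 0.16), and none of the 20 alternatives passed. With CLDN1 and CLDN2 this made 3 of the 9 genes with no overlap between high-dose and vehicle libraries, beside 22.0% of all genes tested. Exons of CLDN12 overlap those of GTPBP10 on the same strand, whose log2 fold change was 0.13 (edgeR adjusted p = 0.459).

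The 3 junction proteins outside the claudin family did not pass at any dose. OCLN (ENSG00000197822, chr5:69492292-69558104) was at 35.8, 36.6 and 36.4 CPM in vehicle libraries and 32.3, 39.8 and 32.8 CPM at the high dose, a log2 fold change of −0.06 (95% interval −0.25 to 0.14, edgeR adjusted p = 0.788). F11R (ENSG00000158769, chr1:160995211-161021343) was at 247.4, 206.5 and 203.5 CPM in vehicle and 179.1, 232.9 and 185.2 CPM in high-dose libraries. Its log2 fold change of −0.14 (95% interval −0.37 to 0.09) had an edgeR adjusted p of 0.518. Without high-dose replicate 2 it was −0.26 with an edgeR adjusted p of 0.0188. Exons of F11R are shared with a readthrough gene on the same strand (ENSG00000270149), which had 19.3 ± 11.3 CPM in vehicle libraries (SD, n = 3), so that the split of reads between the genes is uncertain. The log2 fold changes of the readthrough gene were 0.70 at the low, 0.64 at the medium and 0.63 at the high dose. They were opposite in sign to those of F11R and did not pass (edgeR adjusted p = 0.746, 0.625 and 0.463).

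TJP1 (ENSG00000104067, chr15:29699367-29968915) was at 187.8, 218.6 and 227.2 CPM in vehicle libraries and at 229.2, 147.4 and 219.7 CPM at the high dose. The low value is that of replicate 2. The log2 fold change was −0.09 (95% interval −0.39 to 0.22, edgeR adjusted p = 0.803) with that library and 0.09 (edgeR adjusted p = 0.465) without it. Over the 9 genes the median log2 fold change at the high dose was −0.09, beside 0.005 over all genes tested. Of the 9 values 7 were below 0, beside 7534 of the 15374 genes tested, and the signs of CLDN7 and TJP1 turned without high-dose replicate 2. The 9 genes were not tested as a set. Without high-dose replicate 2 the count of changed genes was 4 (CLDN1, CLDN2, CLDN3 and F11R), in a fit in which 18.7% of all genes changed in place of 5.77%.

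The deviation of high-dose replicate 2 moved with transcript length among the junction genes. Of the 22 junction genes at 5 CPM or more with a MANE Select transcript over 5000 bases, 18 were lower in that library than in the mean of replicates 1 and 3, with a median log2 difference of −0.54. Of the 39 shorter ones 22 were lower, with a median of −0.08. TJP1, with 7190 bases, was among the long genes that were lower, whereas OCLN, with 6181 bases, was higher in that library. The difference was 0.02 in CLDN2 (2961 bases) and 0.01 in CLDN1 (3446 bases), against −0.61 in TJP1 and 0.29 in OCLN. The part of length in the results was not tested beyond a fit with an offset for exon length, chosen after seeing the data, in which CLDN1 and CLDN2 and 6.97% of all genes changed at the high dose.

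**Figure D4:**
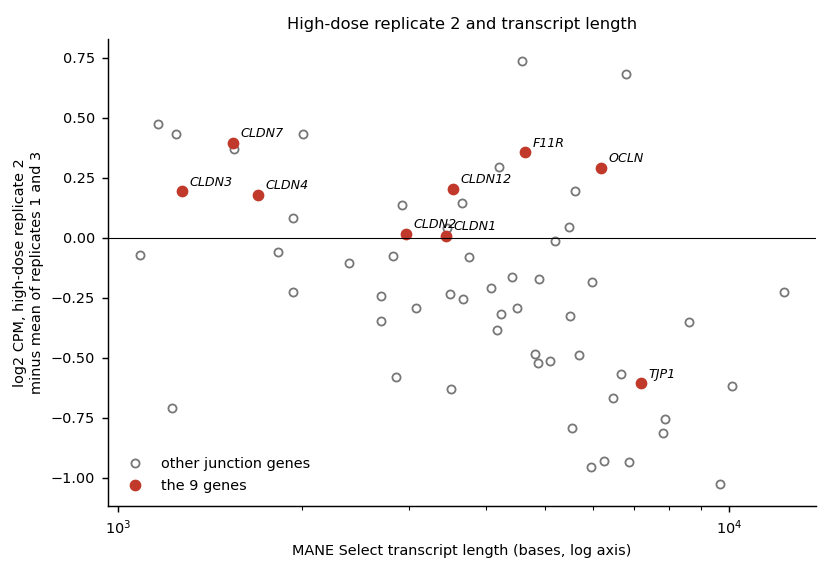
Log2 CPM of high-dose replicate 2 minus the mean of replicates 1 and 3 (y axis) against MANE Select transcript length (x axis, log scale) for junction genes at 5 CPM or more, with the 9 genes in red. Most genes over 5000 bases, TJP1 among them, lie below 0, and CLDN1 and CLDN2 lie near 0.

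Other genes of the junctional complex were taken from 5 lists, of 83 genes in all, of which 63 were tested. Of these 63 genes, 3 changed at the high dose, 4.76%, beside the 5.77% of all genes given above: ESAM rose, and MARVELD2 and CGNL1 fell. CGNL1 was the DEG among them, and 2.93% of all genes tested were DEGs. The median log2 fold change of the 63 was −0.09. At the medium and low doses none of the 63 changed. Without high-dose replicate 2 the count at the high dose was 14 in place of 3, beside 18.7% of all genes in that fit. With vehicle and high-dose libraries only it was 0, beside 1.21% of all genes.

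Of 11 further membrane proteins of the tight junction, 9 were tested. MARVELD2 (ENSG00000152939) codes for tricellulin, which seals the corners where 3 cells meet. It was at 36.8, 35.2 and 37.2 CPM in vehicle and 30.6, 27.3 and 30.7 CPM in high-dose libraries, and the groups did not overlap. Its log2 fold change was −0.30 (SE 0.08, edgeR adjusted p = 0.0416), and 6 of 20 alternatives passed. The low- and medium-dose libraries, 28.9 to 34.0 CPM, were also below the vehicle range but did not pass the test. Of all 15374 genes tested, 1477 lay below the vehicle range in this way at the low and 2172 at the medium dose. Counts above the range are given with CLDN3, and the share at the high dose with CLDN12. ESAM (ENSG00000149564), an adhesion molecule first known from endothelium, was at 52.1, 47.2 and 45.4 CPM in vehicle and 67.4, 63.1 and 64.4 CPM in high-dose libraries. Its log2 fold change was 0.43 (SE 0.07, edgeR adjusted p = 0.00385), and it also had an increasing trend of 0.15 per dose step (edgeR adjusted p = 0.00483). The high-dose call held in 19 of 20 alternatives and was lost with vehicle and high-dose libraries only, where the edgeR adjusted p was 0.101. The 6 other endothelial markers summed to 2.30 to 4.27 CPM over all libraries and to 2.57 to 3.23 CPM at the high dose.

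Of 28 scaffold and polarity genes, 26 were tested and 1 changed. CGNL1 (ENSG00000128849), which codes for paracingulin, was low throughout, with 2.31, 2.79 and 2.77 CPM in vehicle libraries and 1.85, 0.707 and 1.41 CPM at the high dose. Its log2 fold change was −0.93 (SE 0.24, edgeR adjusted p = 0.0416) and the lowest of its values was that of replicate 2. Without that library it was −0.72 (edgeR adjusted p = 0.0158), and 8 of 20 alternatives passed. CGNL1 also had a decreasing trend of −0.30 per dose step (SE 0.08, edgeR adjusted p = 0.0483), which passed in 8 of 19 alternatives.

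None of the 14 adherens junction genes changed at a dose. NECTIN3 (ENSG00000177707), an adhesion molecule that binds other nectins, had a decreasing trend of −0.10 per step (SE 0.03, edgeR adjusted p = 0.0279), with 32.9, 34.7 and 37.7 CPM in vehicle and 27.5, 28.7 and 30.5 CPM in high-dose libraries. This trend passed in 11 of 19 alternatives. None of the 9 desmosome genes tested, of 11, changed. The 3 most abundant of these by CPM were PERP, DSP and DSG2, with high-dose log2 fold changes of 0.01, −0.09 and 0.09. DSP, which codes for desmoplakin, was at 150.1, 73.0 and 147.8 CPM in the high-dose libraries, and replicate 2 is again the low one.

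Of 19 claudin genes outside the 9, counting the claudin domain gene CLDND1, 5 were tested and none changed. CLDN8, CLDN14, CLDN17, CLDN25 and CLDN34 had no count in any library. CLDND1 was at 26.5, 26.7 and 28.4 CPM in vehicle and 29.6, 39.7 and 29.2 CPM in high-dose libraries, a log2 fold change of 0.26 (edgeR adjusted p = 0.198). CLDN15, a pore-forming claudin of the small intestine, had a log2 fold change of −0.15 (edgeR adjusted p = 0.666) and CLDN9 one of −0.15 (edgeR adjusted p = 0.693).

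**Figure D5:**
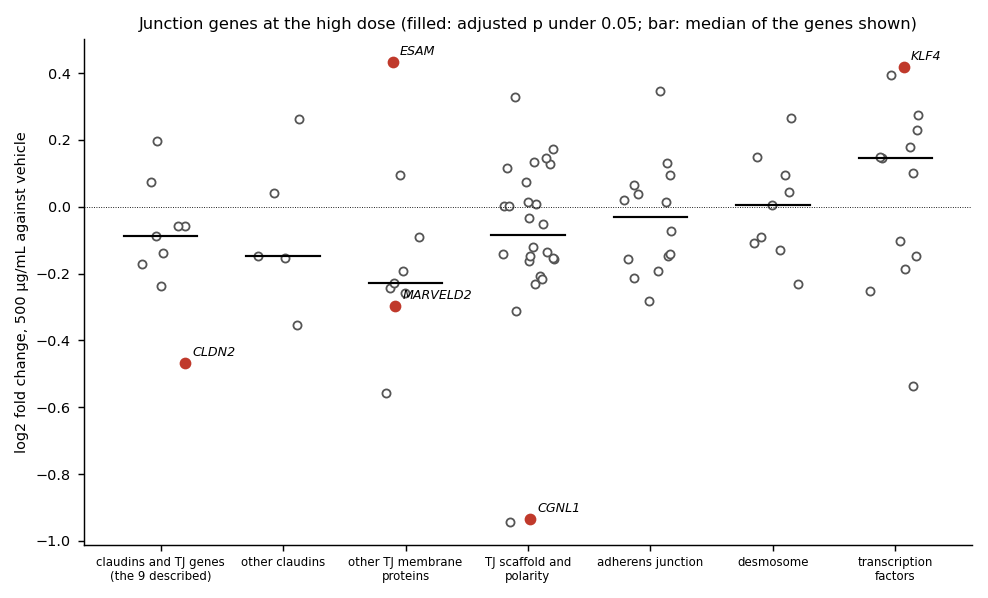
High-dose log2 fold change of the tested genes reported here in 7 lists, filled where the edgeR adjusted p was under 0.05, with a bar at the median of the genes shown. The filled points are CLDN2, ESAM, MARVELD2, CGNL1 and KLF4, between −0.93 and 0.43.

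Of 18 transcription factors known to act on claudin or tight junction genes, 14 were tested. KLF4 (ENSG00000136826), a factor of differentiated surface epithelium, rose from 8.03, 7.87 and 7.77 CPM to 11.7, 10.4 and 9.62 CPM, a log2 fold change of 0.42 (SE 0.10, edgeR adjusted p = 0.0347) that 10 of 20 alternatives kept. CDX2 (ENSG00000165556), the intestinal homeobox factor, had an increasing trend of 0.14 per step (SE 0.03, edgeR adjusted p = 0.0244), which passed in 13 of 19 alternatives. It was at 5.00, 4.94 and 5.09 CPM in vehicle and 6.75, 6.30 and 6.67 CPM in high-dose libraries, where its log2 fold change of 0.40 had an edgeR adjusted p of 0.0521. Whether these factors act on CLDN1 or CLDN2 in these cells was not measured.

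Markers of other cells were compared over the same libraries. Of the 12 colon epithelial markers, CEACAM5 (carcinoembryonic antigen) changed at the high dose, with a log2 fold change of 0.70 (SE 0.14, edgeR adjusted p = 0.0132), and the summed level of the list was 11490 to 13550 CPM in vehicle and 11600 to 13590 CPM in high-dose libraries. Of the 8 leukocyte markers 4 were tested. CD68 and ITGAM rose, with log2 fold changes of 0.57 (edgeR adjusted p = 0.0151) and 0.77 (edgeR adjusted p = 0.0473), beside the 5.77% of all genes that changed. CD14 and LYZ did not pass, with −0.19 (edgeR adjusted p = 0.702) and −0.17 (edgeR adjusted p = 0.508). Without LYZ, which HT29 cells express strongly, the leukocyte list summed to 11.6 to 13.0 CPM in vehicle and 15.0 to 17.7 CPM in high-dose libraries, and MS4A1 was at 0. Their part in the results for the junction genes was not tested.

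The genes whose pattern over the 12 libraries was most like that of CLDN2 or CLDN1 were found among 10620 genes at a mean of at least 5 CPM, by the root mean square difference of log2 CPM centred on the mean of each gene. For CLDN2 they were DNAJC22, ZSCAN5A and TRIM21, with differences of 0.077, 0.083 and 0.084, where the median gene differed by 0.247. DNAJC22, which codes for a J-domain protein, had a high-dose log2 fold change of −0.42 (edgeR adjusted p = 0.00934). For CLDN1 they were TRIM5, NECTIN3 and SPRY2, with differences of 0.055, 0.059 and 0.059, where the median gene differed by 0.187. These genes were selected for their likeness, so their values are a description.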

How the data were processed

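RNA of 12 HT29 libraries was analysed. The deposited values are expected counts per gene, which the authors made by trimming and aligning the reads and running RSEM, without normalization. The submitters' processing notes name FastQC 0.11.9, Trim Galore 0.6.5, STAR 2.7.3a, RSEM 1.3.3 and GRCh38. The expected counts were rounded and tested in edgeR, with DESeq2 as an alternative (filterByExpr, TMM, robust quasi-likelihood fit over the 4 groups, 15374 genes tested, common dispersion 0.0126). Benjamini-Hochberg adjustment was made over all genes tested in each comparison. The trend used the dose rank. CPM are scaled by TMM, and log2 CPM used a prior count of 2. Gene positions and lengths are from GENCODE 44. Scripts ran in Python 3.11.15 with pandas 2.3.3 and were tested on simulated data. No libraries were duplicates. The members and lists were chosen with earlier results of these data known. The text names all 9 members, the genes of each other list that passed at a dose or in the trend, and the 3 genes nearest in pattern to CLDN1 and CLDN2. In the lists of other claudins and of the desmosome, with none that passed, it names the 3 with the highest mean CPM. Of the fibroblast list, also with none, it names the genes tested and those at 0 in all libraries. Libraries of SW1783 cells or wortmannin were not used here. A transcription factor of the lists is not reported here.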

Additional observations from a re-analysis of the deposited data

How the results depend on the processing

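Over the 9 genes, the count changed at the high dose was 1 and became 2 with the DESeq2 Wald test, with library sizes that leave out mitochondrial genes, with at least 10 counts in every library and with an exon length offset (chosen after seeing the data). It became 0 with vehicle and this dose only and with a fold change over 1.5 required, and leaving out 1 library gave 1 to 4. At the medium dose the count was 0 and leaving out 1 library gave 0 to 1. The trend count of 2 became 0 with no filter and 0 with the replicate block, and 0 to 4 with 1 library left out, the 4 without high-dose replicate 2 and the 0 without vehicle replicates 2 or 3, high-dose replicates 1 or 3, medium-dose replicate 2 or low-dose replicates 2 or 3. Between the high and low doses the count of 1 became 2 in the same 4 settings and 0 to 2 with 1 library left out, the 0 without low-dose replicate 2.

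Of the other junction genes, 3 changed at the high dose, 5 with DESeq2, 5 with library sizes without mitochondrial genes, 5 with the exon length offset, 1 with a fold change over 1.5, 1 with the replicate block, 0 with vehicle and this dose only, and 1 to 14 with 1 library left out, the 14 without high-dose replicate 2.

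Signs turned only in values that did not pass. The medium-dose value of CLDN2 became 0.010 with the exon length offset. With 1 library left out, the high-dose values ran from −0.118 to 0.012 in CLDN4, −0.066 to 0.168 in CLDN7 and −0.199 to 0.088 in TJP1. The medium-dose values ran from −0.055 to 0.031 in CLDN2 and −0.065 to 0.035 in CLDN4, the low-dose values from −0.016 to 0.045 in CLDN1 and −0.092 to 0.037 in CLDN4, and the trends from −0.027 to 0.048 in CLDN7 and −0.052 to 0.033 in TJP1. Among all the alternatives, the low-dose value of F11R ran from −0.143 to 0.004. The trend of CLDN4 ran from −0.033 to 0.001 and that of OCLN from −0.041 to 0.003. The cause of these moves was not tested.

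The titles do not say whether the replicate numbers pair the libraries. Deviations of libraries with the same number correlated at −0.585 to 0.381 and those with different numbers at −0.551 to 0.596. Of the 12 libraries, 3 correlated best with their own number. These correlations cannot settle the pairing, since deviations were taken within groups of 3 and high-dose replicate 2 stood apart.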
